A study of Mus musculus with 8 samples.

Results

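Alveolar macrophages (AMs), the resident phagocytes of the airspaces, had 512 autosomal regions that were open after loss of the retinoid X receptors (RXRs) and not listed as open in control cells. They were chosen by presence and absence of peaks alone. Peaks of 8 ATAC-seq lists, a transposase-based sequencing assay of open chromatin, were merged where they shared at least 1 base, and a region was a member if it held a peak in at least 3 of the 4 KO lists and in none of the 4 WT lists. The merge gave 82424 regions, of which 80340 were autosomal, so members were 0.637% of autosomal regions. The opposite rule, a peak in at least 3 of 4 WT lists and in no KO list, chose 1610 regions, or 2%, which are called the mirror set below. Because these peaks chose the members, their contrast between genotypes is a description and was not tested.

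All 8 libraries came from AMs sorted from bronchoalveolar lavage of adult C57BL/6J mice. The KO libraries (replicates 1_2, 1_3, 2 and 3) carried CD11cCre+ Rxrabfl/fl, in which Cre driven by the CD11c gene deletes the floxed parts of Rxra and Rxrb in cells that express CD11c, AMs and dendritic cells among them. The WT libraries (replicates 1_2, 1_3, 3 and 4) carried the same floxed alleles without the Cre transgene (CD11cCre- Rxrabfl/fl), so a Cre+ control without floxed alleles was not analysed here. The sources used here do not say whether the libraries numbered 1_2 and 1_3 came from the same mouse. If they did, the spread between libraries is partly technical.

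RXRs are nuclear receptors that bind DNA as partners of other nuclear receptors, such as PPARγ and the liver X receptors, and switch target genes on or off according to ligand. In AMs, PPARγ is a defining regulator of lipid handling. ATAC-seq marks DNA that a transposase can reach, which includes promoters and distal enhancers, and an accessible region far from any promoter is commonly a candidate enhancer.

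The lists give a partial check of the deleted genes. Of 16 regions with their summit within Rxra, 12 held a peak in all 8 lists, and 1 (chr2:27744546-27744950, mm10) held a peak in all 4 WT lists, with 38, 46, 38 and 42 tags at its summit, and in no KO list. It is named because of this pattern, and whether it lies in the floxed part was not checked. Rxrb held 1 region, which did not separate the genotypes, so the lists do not check its deletion. Of 10 AM marker promoters, 9 held a peak in all 8 lists, Siglecf, Marco, Car4 and Pparg among them, and Chil3 held none. Of 24 markers of other lung cells, 15 held no promoter peak in any list, 6 (Epcam, Scgb1a1, Foxj1, S100a8, Flt3 and Zbtb46) held one in all 8, and Ager, Kdr and Col1a1 in some. The lists held 60363 to 65009 peaks in KO and 61240 to 72484 in WT. A tag is a sequenced transposase cut extended to 200 bases, and the genome-wide background ran from 1.12 to 1.86 tags in KO and from 1.42 to 2.26 in WT. WT replicate 1_3 had the longest list and the highest background. On that background a summit needed 7 to 9 tags to be listed in WT, so a member is a region with less than about that number of tags in WT where the surroundings are closed, and not necessarily one without any.

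The 200 bases around the summits of the 8 strongest members with a peak in all 4 KO lists are shown first, because the strongest of the set are the regions a reader would look up. Capitals mark matches to the motif letters given with the motif results. In the Tox3 sequence the only capitals match the control pattern given there, direct repeat letters written backwards, and mark no factor's site. Among these 8 the RUNX letters TGTGGTT occur in 4, at the members near Gpr149, Brinp1, Cdk5rap2 and Depdc1b. Over all members their share was 9.57%, near the 8.84% of all autosomal regions, so the count in these 8 does not describe the set. The AP-1 letters occur in none of them.
Gpr149 intergenic, chr3:62790055-62790254, plus strand: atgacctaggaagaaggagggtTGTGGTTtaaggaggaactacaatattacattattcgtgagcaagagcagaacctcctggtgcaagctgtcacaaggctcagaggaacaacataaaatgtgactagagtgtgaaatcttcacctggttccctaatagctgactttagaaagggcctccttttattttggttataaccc
Tox3 intergenic, chr8:89889982-89890181, plus strand: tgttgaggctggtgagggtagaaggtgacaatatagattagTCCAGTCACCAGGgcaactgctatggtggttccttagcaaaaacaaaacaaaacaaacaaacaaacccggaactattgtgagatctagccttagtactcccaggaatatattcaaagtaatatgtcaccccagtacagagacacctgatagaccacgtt
Cntnap5a upstream, chr1:113917347-113917546, plus strand: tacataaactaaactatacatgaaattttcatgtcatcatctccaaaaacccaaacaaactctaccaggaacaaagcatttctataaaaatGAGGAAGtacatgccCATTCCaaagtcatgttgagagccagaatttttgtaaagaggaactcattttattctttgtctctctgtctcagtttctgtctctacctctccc
Brinp1 desert, chr4:69672829-69673028, plus strand: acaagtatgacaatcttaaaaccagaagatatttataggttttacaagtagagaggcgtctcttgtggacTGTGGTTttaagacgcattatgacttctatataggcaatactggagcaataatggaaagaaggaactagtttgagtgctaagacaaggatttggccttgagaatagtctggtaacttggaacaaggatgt
Cdk5rap2 desert, chr4:69703421-69703620, plus strand: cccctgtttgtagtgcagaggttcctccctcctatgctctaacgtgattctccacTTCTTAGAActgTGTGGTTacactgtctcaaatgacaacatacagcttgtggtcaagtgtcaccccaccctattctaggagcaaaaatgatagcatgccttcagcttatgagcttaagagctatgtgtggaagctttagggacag
Scd1 upstream, chr19:44416250-44416449, plus strand: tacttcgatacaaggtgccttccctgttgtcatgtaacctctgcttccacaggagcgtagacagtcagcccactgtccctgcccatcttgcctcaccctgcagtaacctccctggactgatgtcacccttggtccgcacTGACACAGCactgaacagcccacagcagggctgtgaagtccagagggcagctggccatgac
Elovl7 intron, chr13:108276668-108276867, plus strand: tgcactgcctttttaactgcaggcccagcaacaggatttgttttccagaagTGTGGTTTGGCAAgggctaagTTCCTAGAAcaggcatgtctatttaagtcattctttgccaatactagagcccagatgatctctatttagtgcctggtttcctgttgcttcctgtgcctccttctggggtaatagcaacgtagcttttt
Plcb4 intron, chr2:135884640-135884839, plus strand: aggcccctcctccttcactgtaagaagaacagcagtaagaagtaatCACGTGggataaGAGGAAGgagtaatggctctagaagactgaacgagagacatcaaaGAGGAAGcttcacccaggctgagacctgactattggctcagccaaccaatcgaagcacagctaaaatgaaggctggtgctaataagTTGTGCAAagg

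The strongest member of each of the 3 largest clusters follows, since clusters are where several members lie side by side.
Sash1 intron, chr10:8875290-8875489, plus strand: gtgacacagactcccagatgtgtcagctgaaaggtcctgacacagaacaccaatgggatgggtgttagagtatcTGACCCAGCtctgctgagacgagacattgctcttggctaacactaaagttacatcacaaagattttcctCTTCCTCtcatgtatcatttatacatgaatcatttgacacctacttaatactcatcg
Zmat4 intron, chr8:23841000-23841199, plus strand: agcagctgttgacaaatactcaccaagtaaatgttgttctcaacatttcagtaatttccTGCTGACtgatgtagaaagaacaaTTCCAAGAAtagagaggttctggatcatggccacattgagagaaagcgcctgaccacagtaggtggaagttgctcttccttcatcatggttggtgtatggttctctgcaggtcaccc
Fam19a5 intron, chr15:87675091-87675290, plus strand: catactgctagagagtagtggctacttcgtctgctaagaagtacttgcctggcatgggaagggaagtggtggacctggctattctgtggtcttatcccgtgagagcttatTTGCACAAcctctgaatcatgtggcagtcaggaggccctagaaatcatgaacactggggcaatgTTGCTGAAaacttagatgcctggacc

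The strongest member lay in an intergenic stretch 185 kb upstream of Gpr149, which encodes an orphan G protein-coupled receptor. Its summit (chr3:62789910-62790353) held 98, 76, 77 and 77 tags in KO 1_2, 1_3, 2 and 3. That was a mean strength percentile of 77.4, the rank of its −log10 p-value among all peaks of its own list, averaged over the KO lists. The next lay 458 kb downstream of the start of Tox3, an HMG-box chromatin protein (chr8:89889887-89890275), with 67, 65, 59 and 45 tags. All 4 KO libraries were high at both, and no WT list held either.

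The next 3 lay far from any coding gene. The member in an intron of the noncoding gene 9330185C12Rik (chr1:113917155-113917640) held 46, 39, 32 and 32 tags, and its nearest coding gene, the neurexin family member Cntnap5a, started 1767.3 kb away. In the gene desert between Brinp1 and Cdk5rap2 on chromosome 4, the member nearest to Brinp1 (chr4:69672751-69673170) held 42, 37, 34 and 30 tags. The member nearest to Cdk5rap2, a centrosome protein (chr4:69703334-69703706), held 41, 25, 43 and 39. KO 1_3 was the lowest there.

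The last 3 lay in or beside genes. A member 8.64 kb upstream of Scd1 (chr19:44416171-44416588), the stearoyl-CoA desaturase that makes monounsaturated fatty acids, held 35, 34, 31 and 29 tags. A member in an intron of Elovl7 (chr13:108276574-108276947), an elongase of long-chain fatty acids, held 33, 29, 31 and 34 tags, and the closest promoter was that of Depdc1b at 39.6 kb. A member in an intron of Plcb4 (chr2:135884543-135884951), a phospholipase C, held 34, 27, 32 and 33. The 4 KO values of each of these lay close together.

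**Figure D1:**
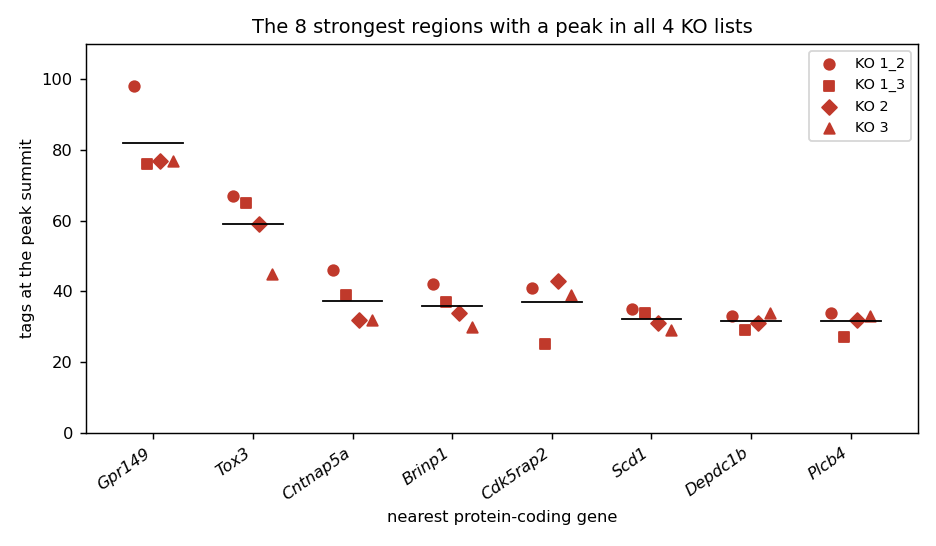
Tags at the peak summit (y axis) in each KO library (symbols) for the 8 strongest members with a peak in all 4 KO lists, named by the nearest protein-coding gene (x axis); the line is the mean of 4 libraries. The members near Gpr149 (76 to 98 tags) and Tox3 (45 to 67 tags) stand above the other 6, which lie between 25 and 46.

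Most members were weak. The median mean percentile was 15.3 (interquartile range 9.9 to 21), against 34.1 over all autosomal regions and 62.1 over the 46378 with a peak in all 8 lists. The mirror set was alike at 14.9. Only 7 members, 1.37%, had a mean percentile over 50, against 37.9% of all autosomal regions, and of these 7, 5 were intergenic and 5 lay over 100 kb from a coding start. Members listed in a library held a median of 17, 17, 16 and 15 tags in KO 1_2, 1_3, 2 and 3, with a range of 8 to 104. Their median width was 306 bases, against 393.

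The members split into 183 with a peak in all 4 KO lists and 329 with a peak in 3. The 329 lacked KO 1_2 in 104, KO 2 in 106, KO 3 in 62 and KO 1_3 in 57. Those in 4 lists had a median percentile of 19.8 and 17.8 tags, and those in 3 had 12.4 and 14.7 tags. Just outside the rule lay 805 regions with a peak in 2 KO lists and no WT list (median percentile 9.82, 14 tags). Another 591 had a peak in 3 KO lists and 1 WT list (12.9, 15.2 tags), and 311 in 4 KO lists and 1 WT list (16.6, 16.6 tags). Members and near misses thus overlapped in strength. In those last 2 groups the 1 WT list was replicate 1_3 in 494, replicate 3 in 173, replicate 1_2 in 150 and replicate 4 in 85.

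Libraries left out of the choice were then read at regions chosen by the others. With 1 KO and 1 WT library held out in turn, regions with a peak in the 3 remaining KO lists and in none of the 3 remaining WT lists numbered 289 to 552 over the 16 combinations. The held-out KO list held a peak at 61.1% to 77.5% of them (median 67.8%) and the held-out WT list at 14.8% to 49.8% (median 23.7%). The KO share was above the WT share in 16 of 16 combinations, which share libraries and are no independent tests. The share was 45.3% to 49.8% for WT 1_3, the longest list, and 14.8% to 18.1% for WT 4, the shortest WT list. At regions chosen by the mirror rule in the same way, WT 1_3 also held most, 89.5% to 90.4%, and WT 4 least, 55.4% to 56.5%. In lists cut to the 60363 strongest peaks each, the length of the shortest list, the held-out KO share was 67.3% to 72% and the WT share 22.6% to 27.5%, again with KO above WT in 16 of 16.

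The size of the set differed between the full lists and lists of equal length. With the same rule applied to other arrangements of the 8 lists into 4 and 4, 68 arrangements that mix the genotypes gave 67 to 1126 regions, and 13 of them gave more than 512. The 36 arrangements with 2 KO and 2 WT lists on each side gave 67 to 706 (median 192.5). The highest mixed count, 1126, came from KO 1_3 with WT 1_2, WT 1_3 and WT 3. For a peak in all 4 lists, members numbered 183 and the highest mixed arrangement 227. So in the full lists the number of members did not stand above what mixed arrangements gave.

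In lists of equal length the picture differed. The rule then chose 882 regions for KO, 1025 for WT and 181 to 427 (median 264) for the 68 mixed arrangements, none of which exceeded the KO count. Of the 512 members, 394 (77%) overlapped a region of the 882, and they made up 44.7% of it. The 882 are thus not the members, and a region among them can hold a weaker WT peak that the cut removed. Leaving out a WT list cannot shrink the set, and without WT 1_2, 1_3, 3 or 4 the full lists gave 663, 1011, 685 and 597. Without KO 1_2, 1_3, 2 or 3, where all 3 remaining KO lists had to hold a peak, they gave 286, 240, 290 and 246. The mirror set numbered 874, 659 and 769 without WT 1_2, 1_3 and 3, and 1075 without WT 4. These are counts, and no p-value was attached to them.

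**Figure D2:**
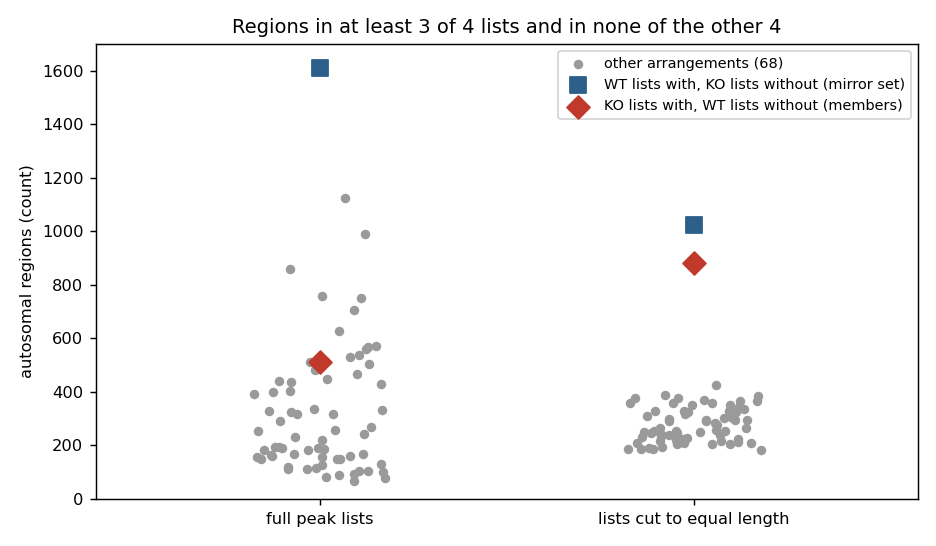
Number of autosomal regions (y axis) with a peak in at least 3 of 4 lists and in none of the other 4, for the members (KO against WT), the mirror set (WT against KO) and 68 mixed arrangements, in the full lists and in lists cut to 60363 peaks each (x axis; points are spread sideways for legibility). In the full lists 13 mixed arrangements lie above the 512 members. At equal length the symbols for members and mirror set mark the same rule in cut lists, 882 for KO and 1025 for WT. Both lie above every mixed arrangement, which reach 427, and the 882 are not the members.

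Members lay away from promoters. Their median distance to the nearest protein-coding transcription start site (TSS) was 33.3 kb (95% exact binomial interval of the median 29.1 to 38), against 27.8 kb in the mirror set, 18.5 kb in the other 5736 regions with a peak in 3 or 4 lists and 15.3 kb over all autosomal regions. Only 18 members (3.52%) lay within 1 kb of a TSS, against 9.07% of the mirror set and 19% of all. Members over 100 kb from a TSS numbered 113 (22.1%), against 19.8% and 10.9%. By annotation 259 (50.6%) lay in introns, 22 (4.3%) in exons and 231 (45.1%) between genes, and 35.2% of the mirror set and 38.9% of all regions were intergenic.

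The median distance from a member to the nearest region with a peak in all 8 lists was 8.59 kb, close to the 8.71 kb of the mirror set, against 6.32 kb in the other regions with 3 or 4 peaks. The ends of the range differed more. Within 1 kb of such a region lay 48 members (9.38%), against 16.9% of the mirror set and 19.6% of the other regions with 3 or 4 peaks. At the far end, 72 members (14.1%) were over 100 kb from such a region, against 9.07% and 3.96%. At 87 members (17%) the local background was over 3 times the genome-wide one, against 19.5% of the mirror set, so the surroundings were raised at a minority. Relative to all regions, members were densest on chromosome 8, with 7.23% of members and 4.95% of regions, and sparsest on chromosome 9, with 3.32% and 5.38%. Summits in repeats numbered 61 (11.9%), against 12.9% of the mirror set and 11.3% of all regions, and the median GC content was 48.5%, against 49% and 50.5%.

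The 18 members within 1 kb of a TSS had mean percentiles of 5.69 to 25.4, so all ranked among the weaker peaks, and only 3 of them were listed in all KO libraries. The strongest was 0.051 kb from the start of Cuedc2, with 52 tags in KO 1_2, 44 in KO 1_3 and 45 in KO 3, while KO 2 listed none. It lay 0.299 kb from a region open in all 8 lists, on a local background 8.08 times the genome-wide one. The member at Dnajc3, an endoplasmic reticulum co-chaperone, held 79, 74 and 60 tags on a background of 16.6 times. Such tag numbers on a raised background still ranked low, at percentiles of 25.4 and 24.1.

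Of those listed in 4 KO libraries, the member in the coding exon of the taste receptor gene Tas2r126 held 19, 17, 13 and 13 tags. The member at Ecm1, an extracellular matrix glycoprotein, held 17, 22, 24 and 23, and lay 0.85 kb from a region shared by all lists. The members at Usp39, Gm42417, the olfactory receptor gene Olfr1258, Capns1, Rasef and Rnf213 had a peak in 3 lists, with 11 to 36 tags and local backgrounds of 1 to 4.48 times the genome-wide one. No AM marker promoter was among the 18, which the rule largely fixed, since 9 of 10 held a peak in all 8 lists.

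Clusters held 104 of the members (20.3%, 95% exact binomial interval 16.9% to 24.1%). Chaining members with gaps of at most 50 kb gave 43 clusters, 28 of 2 members, 12 of 3 and 3 of 4. Of the mirror set, a larger set of 1610, 20.7% lay in clusters, and of the other regions with 3 or 4 peaks, a much larger and denser set, 43.2%. Larger sets chain more readily at a fixed gap, so these shares do not compare clustering between sets. A cluster spanned 1.13 to 83.6 kb (median 32.8 kb), and 10 spanned under 10 kb. In 35 of the 43 all members shared a nearest coding gene, in 16 they lay in the same gene, and in 17 none lay in a coding gene. No cluster had a mirror region within its span, and 17 held a region open in all 8 lists. How often stretches of such length elsewhere hold a mirror region was not counted, so this absence does not set the clusters apart.

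The strongest of the largest clusters covered Sash1, which encodes a scaffold protein with SAM and SH3 domains (chr10:8833849-8912618, 78.8 kb). Of its 4 members, the one 10.7 kb into the gene (chr10:8875197-8875626) held 66, 68, 63 and 62 tags. The one 4.15 kb into it (chr10:8881703-8882068) held 42, 57, 47 and 48. Both sat on a raised local background, 7.04 and 4.93 times the genome-wide one. A weaker one, 52 kb into the gene, held 20, 15, 21 and 21, and the last, 26.4 kb upstream and in an intron of the noncoding gene Gm48727, was listed in 3 libraries with 14, 11 and 15. Another member nearest to Sash1, 88.1 kb from its start and outside the cluster, held 16, 18, 22 and 33.

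The other clusters of 4 were islands. In an intron of Zmat4, a zinc finger gene, 4 members lay within 5.62 kb (chr8:23838366-23843983), 169 to 174 kb from the TSS and 555 to 561 kb from the nearest region open in all 8 lists. The 3 listed in all KO libraries held 34, 40, 32 and 24 tags, then 38, 35, 35 and 26, then 27, 34, 18 and 23. In Fam19a5, which encodes a secreted chemokine-like protein, 4 members spread over 51.4 kb (chr15:87624059-87675412), 549 to 600 kb from shared open chromatin. The strongest held 38, 21, 22 and 16 tags, and the one 1.02 kb from the nearest TSS was listed in 3 libraries with 16, 12 and 10.

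Of the 3 clusters of 3 members named here, each held at least 1 of the 8 strongest. Upstream of Gpr149 (chr3:62781026-62790353, 9.33 kb) the members beside the strongest held 34, 39, 26 and 27 tags, and 19, 14, 13 and 13. Downstream of Tox3 (chr8:89850265-89890275, 40 kb) they held 31, 34, 23 and 33, and 13, 11, 16 and 10. In the desert between Brinp1 and Cdk5rap2 (chr4:69672751-69704703, 32 kb) the weakest of 3 was listed in 3 libraries with 15, 10 and 12, and the nearest coding start was 706 kb away. Strong and weak members lay side by side in each.

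**Figure D3:**
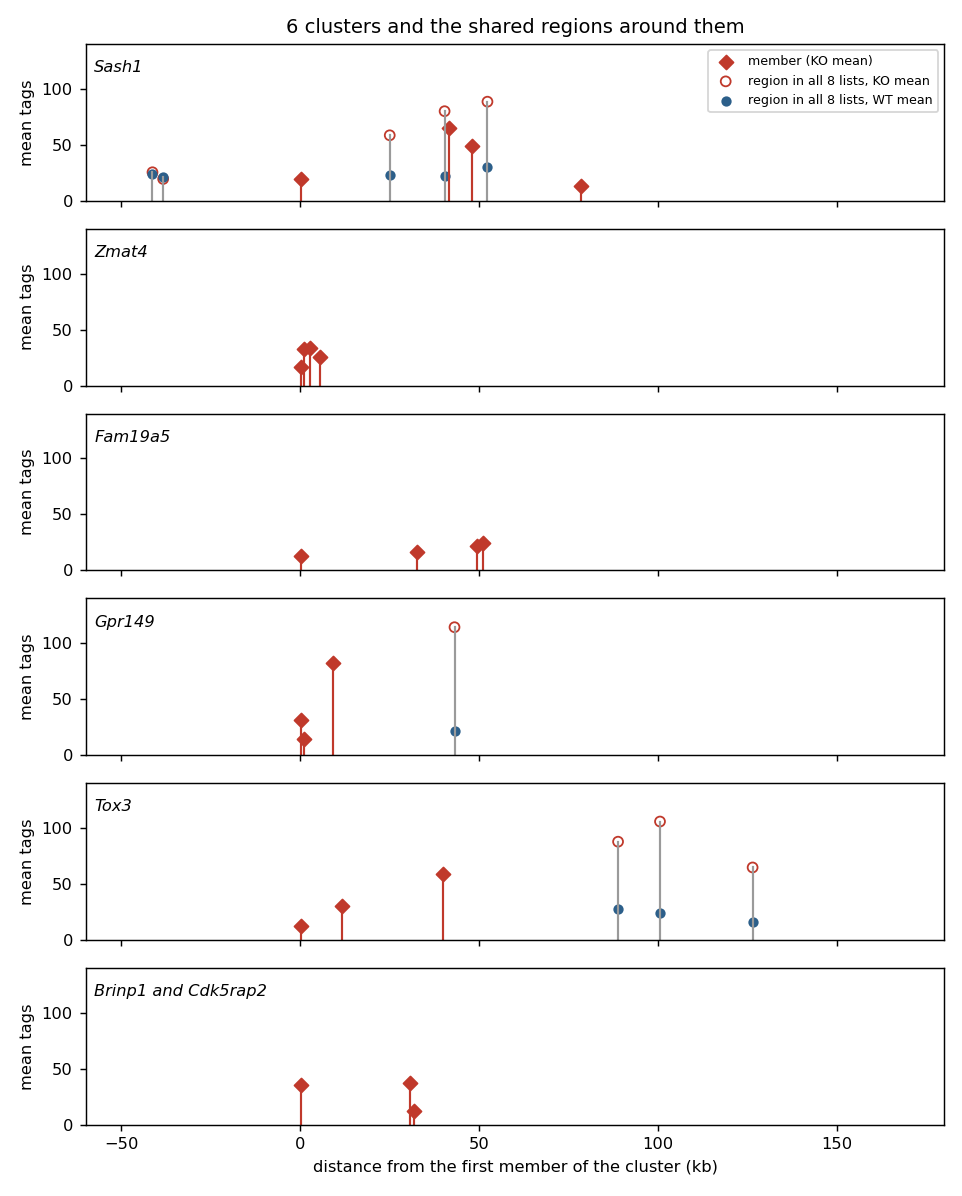
Mean tags at the summit (y axis) against distance from the first member of the cluster in kb (x axis) for 6 clusters. Diamonds are members (mean of the KO lists with a peak). Open circles (KO) and filled dots (WT) are means (n = 4 each) of regions with a peak in all 8 lists in or around the cluster. At Tox3 only 1 of them lies within 50 kb of a member drawn. Others lie within 50 kb of a Tox3 member outside the cluster. Within 50 kb of a member, the shared regions at Gpr149 and Tox3 and 3 of the 5 at Sash1 stand higher in KO. Near Gpr149 the mean tags are 114 in KO against 21.2 in WT. The 2 others at Sash1 have means of 25.5 against 24.2 and 19.5 against 21.2. At Zmat4, Fam19a5 and the Brinp1 and Cdk5rap2 desert no shared region lies within 50 kb of a member.

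Members were spread over many genes. The 512 had 441 nearest coding genes, 395 of them nearest to a single member, out of 15752 coding genes nearest to any autosomal region (2.8%). Of the members, 251 lay inside a coding gene and 206 inside their nearest one. Plcb4 was nearest to most, with 6 members, 5 of them listed in all KO libraries. Their mean percentiles had a median of 27.3, and they lay 4.09 to 266 kb from a TSS, 5 of them inside the gene. Sash1, Tox3 and Zmat4 had 5 each and Fam19a5 had 4.

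Each gene list of macrophage function had 0 to 5 genes nearest to a member, beside 2.8% of all coding genes. Counted were list genes that are nearest to any autosomal region. Genes for migration and adhesion had most, with 5 of 29 (17.2%) nearest to a member: Cxcr4, the receptor for CXCL12, Itga1 and Itga5, integrin chains for collagen and fibronectin, and the adhesion molecules Pecam1 and Vcam1. The mirror set was nearest to 6 of the same 29. Only 2 of these members lay in or within 20 kb of the gene. In an intron of Pecam1 (chr11:106700352-106700581) the tags were 24, 24 and 21 in KO 1_2, 1_3 and 3, and 12.1 kb upstream of Itga5 (chr15:103378802-103379185) they were 16, 22, 15 and 13. The members assigned to Cxcr4, Itga1 and Vcam1 lay 219, 505 to 511 and 56.8 kb away.

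In lipid metabolism 2 of 26 genes were nearest to a member, Scd1 (above) and Mgll, the monoacylglycerol lipase, with a member 46.9 kb from its start and 21, 19, 11 and 15 tags. The lists that follow had 1 gene each. Gpnmb, a lysosomal glycoprotein of lipid-laden macrophages, was 1 of 17 in its list, with a member 8.34 kb from its TSS (chr6:49028112-49028393) that held 45, 43, 34 and 32 tags on a local background 6.61 times the genome-wide one. F13a1, a monocyte and tissue macrophage gene, was 1 of 20, with 15, 12 and 12 tags in an intron. Socs3, Cdk6 and Flt3 were nearest to a member in the lists for inflammatory response (31 genes), proliferation (24) and markers of other lung cells (18). Of the AM identity list 0 of 35, of the AP-1 family 0 of 14, of apoptosis 0 of 25 and of the AM markers 0 of 10 were nearest to a member, and the mirror set, nearest to 8.47% of all genes, was nearest to 9, 3, 3 and 2 of them. Beside the background of 2.8% of all genes for members, shares of lists this short rest on a few genes.

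The share of members with the AP-1 letters was 18.2%, against 9.32% of all autosomal regions. AP-1 is a dimer of FOS and JUN proteins that is induced by activation and binds TGACTCA or, on the other strand, TGAGTCA. These letters lay within 100 bases of the summit in 93 members (95% exact binomial interval of the share 14.9% to 21.8%). The 80340 autosomal windows had the same length. The share was 8.51% in the mirror set, 8.42% in the other regions with 3 or 4 peaks and 9.93% in regions open in all lists. It was 19.7% in the 183 members with 4 KO lists and 17.3% in those with 3. Within 50 bases it was 11.3%, against 6.13% of all. Of the 93, 36 had a peak in 4 KO lists and 16 lay in clusters. Their median percentile was 16.4 and that of the other 419 was 14.9. A match shows letters in the sequence, not a bound factor, and no test was made over regions.

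The AP-1 match is shown in capitals in its surroundings for the 6 strongest members that have one and were listed in all KO libraries. These were picked after the motif counts had been seen. They lie in an intron of Spint1, a protease inhibitor gene, in an intron of Rasef, between genes near AA467197, 875 kb from Fam19a2, in an intron of Tox3 and 77.1 kb from Serpinb9g.
Spint1 intron, chr2:119242567-119242599, plus strand: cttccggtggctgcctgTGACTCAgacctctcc
Rasef intron, chr4:73748393-73748432, plus strand: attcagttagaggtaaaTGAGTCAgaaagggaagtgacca
AA467197, chr2:122652502-122652541, plus strand: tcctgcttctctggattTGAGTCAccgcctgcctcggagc
Fam19a2 far, chr10:124138608-124138647, plus strand: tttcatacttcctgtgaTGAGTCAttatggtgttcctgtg
Tox3 intron, chr8:90302298-90302337, plus strand: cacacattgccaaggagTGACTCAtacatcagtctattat
Serpinb9g, chr13:33561899-33561938, plus strand: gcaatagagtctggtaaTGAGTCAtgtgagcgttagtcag
The 4 KO libraries held 48, 36, 35 and 31 tags at the Spint1 member, 29, 27, 25 and 30 at Rasef, 25, 26, 32 and 25 near AA467197, 27, 28, 19 and 21 at the Fam19a2 one, 21, 29, 20 and 22 in Tox3 and 21, 23, 25 and 22 near Serpinb9g. The matches lay 14 to 87 bases from the summit.

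Of 18 patterns searched on both strands, 3 more had a share over 2 percentage points higher in members than over all regions. STAT letters (TTCNNNGAA) lay in 49 members (9.57%), against 5.96% of all regions and 6.34% of the mirror set. IRF letters (GAAANNGAA), bound by interferon regulatory factors, lay in 9.38%, against 6.93% and 6.71%. The antioxidant response letters (TGACNNNGC), which can share their TGAC with an AP-1 site, lay in 79 (15.4%), against 10.8% and 10.1%, and 24 members had both these and the AP-1 letters.

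The letters of AM lineage factors had shares near or below those of other regions. PU.1 letters (GAGGAAG), for the macrophage master regulator encoded by Spi1, lay in 18.2% of members, against 23% of all regions and 23.9% of the mirror set. C/EBP letters (TTGCNNAA) lay in 15.8% against 14.4% and 17.1%, and RUNX letters (TGTGGTT) in 9.57% against 8.84% and 11.4%. The direct repeat with a spacer of 1 base that RXR and PPARγ bind together (DR1, AGGTCA half-sites with at most 2 mismatches) lay in 19 members (3.71%), against 4.14% of all and 7.08% of the mirror set. The same letters written backwards, a control, lay in 3.32%, 2.87% and 2.92%. With a spacer of 4 bases (DR4, bound by RXR with liver X or thyroid hormone receptors) it was 2.15% against 2.68% and 2.86%. CTCF letters lay in 9.18% of members, against 10.7% of all, 5.96% of the mirror set and 18.4% of the other regions with 3 or 4 peaks. Their share was 4.37% in members with 4 KO lists and 11.9% in those with 3. GATA letters (AGATAA) lay in 4.1% against 6.03%, and EGR letters (GTGGGCG) in 1.37% against 3.69%. The others were E-box (CACGTG), 4.88% against 5.23%, MAF (TGCTGAC), 5.66% against 4.46%, TEAD (CATTCC), 8.98% against 8.58%, NF-kB (GGANTTTCC), 1.76% against 0.927%, and CRE (TGACGTCA), 0.586% against 0.89%.

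Regions open in both genotypes gave a measure that the rule did not use directly, though it comes from the same libraries. Peaks are called against the local background, so absence of a WT peak can be linked to the tags of shared regions close by. At the 46378 autosomal regions with a peak in all 8 lists, log2(tags + 0.5) at the summit was median-centred per library, and KO was set against WT with limma. Of all of them 2812 (6.06%) were higher in KO and 3160 (6.81%) lower, at a Benjamini-Hochberg adjusted p under 0.05. Of the 2108 with their midpoint within 50 kb of a member's, 254 (12%) were higher and 97 (4.6%) lower. The median log2 difference, KO minus WT, was 0.095 near members and 0.049 over all regions. Over all regions higher calls outnumbered lower ones with the replicate number as a block (4371 and 3044) and without WT 4 (3689 and 2993). The block contrast rests only on numbers found in both genotypes, so KO 2 and WT 4 add nothing to it. Scaled by background depth instead, 95 (4.51%) near members were higher and 52 (2.47%) lower, beside 1.17% and 4.22% of all, with medians of 0.0315 and −0.0145. With quantile normalisation 220 (10.4%) were higher and 114 (5.41%) lower, beside 4.93% and 7.63% of all. Under each of these scalings the share of higher calls near members exceeded that over all regions.

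By distance, higher calls made up 11.6% at 0 to 5 kb from a member, 14% at 5 to 20 kb, 10.9% at 20 to 50 kb, 7.96% at 50 to 100 kb and 5.7% beyond. Around the mirror set they made up 5.79%, 4.1%, 4.91%, 4.72% and 6.46%, and lower calls 10.3%, 12.6%, 9.35%, 6.99% and 6.14%. Within 5 kb of a member lower calls were as frequent as higher ones, 28 each of 241 regions. Lower calls made up 11.6% there, against 3.56% at 5 to 20 kb. At so short a distance the calls are not independent of the rule, because of the local background, and its part was not tested. Of the 512 members, 412 had a shared region within 50 kb, 184 had at least 1 that was higher in KO and 67 at least 1 that was lower. The same counts were not made for other sets. A member can have several shared regions nearby, so these counts have no background to be read against.

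**Figure D4:**
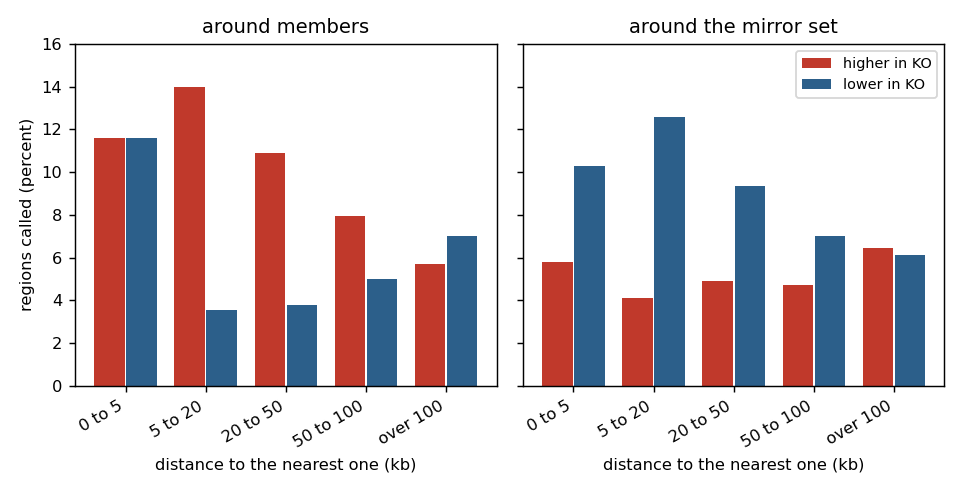
Percent of regions with a peak in all 8 lists that were called higher or lower in KO (y axis; limma, adjusted p under 0.05) by distance to the nearest member (left) or mirror region (right) in kb (x axis). Higher calls are most frequent 5 to 20 kb from members (14%) and lower calls 5 to 20 kb from the mirror set (12.6%).

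The 8 neighbouring regions of lowest adjusted p were all higher in KO, and 5 of them lay at Gpr149, Tox3 or Sash1. Near Gpr149, 34 kb from the strongest member, a shared region (chr3:62823811-62824446) held 132, 130, 103 and 92 tags in KO 1_2, 1_3, 2 and 3 and 25, 22, 21 and 17 in WT 1_2, 1_3, 3 and 4. The groups did not overlap, and the log2 difference was 2.62 (SE 0.155, adjusted p = 1.66e-17, limma). Beside the Tox3 cluster, a shared region (chr8:89950512-89951060) held 112, 110, 111 and 90 in KO and 18, 29, 24 and 24 in WT (log2 2.37, SE 0.155, adjusted p = 5.75e-16, limma). Further along, chr8:89976410-89976915 held 67, 65, 59 and 68 in KO and 19, 17, 14 and 16 in WT (log2 2.17), and chr8:89938882-89939253 held 96, 96, 85 and 74 and 25, 24, 29 and 33 (log2 1.87). All 3 shared regions within 50 kb of a Tox3 member were thus higher in KO.

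At Sash1 the shared regions included the promoter. The region 0.02 kb from the TSS (chr10:8885753-8886566) held 89, 79, 97 and 89 tags in KO and 18, 32, 36 and 34 in WT, with no overlap (log2 1.81, SE 0.176, adjusted p = 1.76e-10, limma). The intronic region 11.9 kb from it (chr10:8873999-8874366) held 76, 85, 71 and 88 and 24, 18, 25 and 21 (log2 2.07). Another in an intron (chr10:8858641-8859068) held 49, 62, 66 and 57 against 16, 24, 25 and 26 (log2 1.58). The 2 others within 50 kb of a member there, 90.5 and 93.5 kb from the TSS, had log2 differences of 0.11 and 0.297 and did not pass (adjusted p = 0.779 and 0.332, limma). Of 5 shared regions within 50 kb of a member nearest to Plcb4, 3 were higher, with log2 differences of 0.902 and 1.18 between genes and 1.26 in an exon of Plcb1, 267 kb from the Plcb4 TSS, and none was lower.

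The other 3 of the 8 lay at loci not yet named. A region 6.84 kb from the TSS of Smok2a, a sperm motility kinase gene (chr17:13214092-13214707), held 306, 298, 248 and 188 tags in KO and 105, 133, 94 and 75 in WT (log2 1.58). A region 687 kb from Trhde, which encodes an ectoenzyme that degrades thyrotropin-releasing hormone (chr10:114114542-114115011), held 100, 99, 75 and 68 and 21, 38, 17 and 12 (log2 2.26). A region in an intron of Padi3, 13.4 kb from the start of Padi4, both of them peptidylarginine deiminase genes (chr4:140787426-140787879), held 83, 71, 77 and 83 and 18, 23, 34 and 20 (log2 1.96). In all 8 the lowest KO library lay above the highest WT library, as the choice by lowest p all but fixes.

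**Figure D5:**
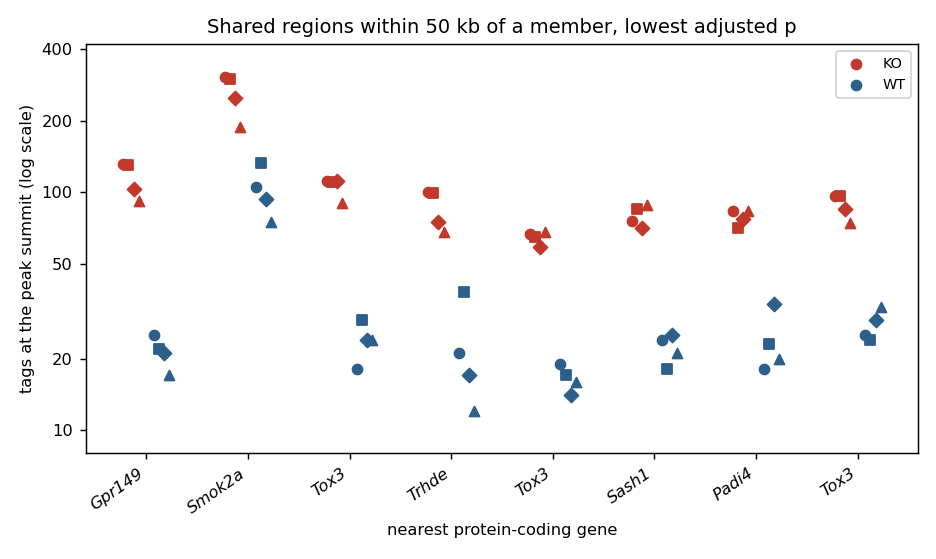
Tags at the peak summit (y axis, log scale) in the 4 KO and 4 WT libraries (points; circle, square, diamond and triangle are KO 1_2, 1_3, 2 and 3 and WT 1_2, 1_3, 3 and 4) for the 8 regions with a peak in all 8 lists that lie within 50 kb of a member and had the lowest adjusted p, named by nearest coding gene (x axis). KO and WT do not overlap at any of the 8.

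Some shared regions beside members went the other way. In Kcnh4, a potassium channel gene, a region 0.481 kb from the TSS (chr11:100758940-100759471) held 107, 107, 83 and 85 tags in KO and 240, 255, 208 and 196 in WT (log2 −1.01, SE 0.0983, adjusted p = 1.79e-10, limma). It lay 2.6 kb from a member in the coding exon of the neighbouring gene Hcrt, listed in 3 KO libraries with 38, 43 and 24 tags on a local background 5.6 times the genome-wide one. At the promoter of Nsmf (chr2:25054197-25054838), 13.4 kb from a member, KO held 59, 55, 41 and 50 and WT 157, 140, 159 and 115 (log2 −1.25). A region listed in KO only and a loss in shared chromatin thus stood within a few kb of each other at Kcnh4, which, like Nsmf, was chosen for its low p. Peaks are called against the local background, so a higher one in WT can leave a summit unlisted there at equal tags. Whether the Hcrt member gained tags in KO was not tested.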

How the data were processed

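ATAC-seq peak lists of 8 libraries (4 KO, 4 WT, grouped by the sample titles) were analysed. Per the methods, the authors used Cutadapt for trimming and Bowtie2 for alignment (mm10), kept properly paired, non-duplicated alignments of high quality and called peaks with MACS3 per library, each read end shifted and extended to 200 bases, at a q-value of 0.05. Each deposited list holds positions, a display score (not used), a fold ratio of summit pileup to local background, significance as −log10 of the p-value and of the q-value, and where in the peak its summit lies. No read counts were used. A longer, deeper list reaches the threshold at weaker regions, so absence of a peak does not mean closed chromatin.

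Summit tags were worked back from the deposited fold and −log10 p-value under the caller's Poisson model, and whole numbers gave back 100% of p-values within a relative error of 1e-05. Strength is the percentile of −log10 p within a list. Genes are those of GENCODE M21 (basic) and sequences those of the RefSeq GRCm38 (mm10) genome, within which all autosomal peaks lay. Clusters chain members with gaps of at most 50 kb. Motif letters were matched within 100 bases of the strongest summit. Shared regions were fitted with limma 3.58.1 (R 4.3.3; trended prior variance) on log2(tags + 0.5), after a test of the script on simulated data. Python 3.11.15, pysam 0.24.0 and samtools 1.23.1 did the rest.

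Named were the 8 strongest members in 4 KO lists, the 6 clusters with most members, up to 10 strongest promoter members, gene list members, the genes nearest to most members and the 8 neighbours of lowest p; the AP-1 windows, the Sash1 promoter, the Plcb4, Kcnh4 and Nsmf neighbours were added after their values were seen. The members, gene lists and motif patterns were chosen with earlier results of these data known. Intervals cover counting error only, and regions are not replicates. Alternatives were list length, a stricter q-value, summit distance, gaps, scaling, pseudocount, left-out libraries and a replicate block. The result of 1 gene list is not reported here.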

Additional observations from a re-analysis of the deposited data

Results flagged for a closer look

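Among 57 groups of 4 libraries checked for a library far from the other 3, by the gap to its nearest neighbour over the range of the group, 5 passed the Dixon limit for 4 values. Chance passes about 1 group in 20. Tags were not scaled for depth here. Of the KO libraries, KO 1_2 had the highest genome-wide background (1.86 tags) and KO 3 the lowest (1.12), and the part of depth in these flags was not tested. The strongest member near Gpr149 (chr3:62789910-62790353) had 98 tags in KO 1_2 and 76 to 77 in the others. Its neighbour in the same cluster (chr3:62782003-62782326) had 19 tags in KO 1_2 and 13 to 14 in the others. The Sash1 member at chr10:8833849-8834223 had 15 tags in KO 1_3 and 20 to 21 in the others. The Fam19a5 member at chr15:87673153-87673622 had 26 tags in KO 1_3 and 20 to 21 in the others. The shared region near Tox3 at chr8:89950512-89951060 had 90 tags in KO 3 and 110 to 112 in the other KO libraries, with WT at 18 to 29.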

How the results depend on the processing

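Of 88 alternative values, 59 stayed within the limits set for a stable value and 29 moved. They are counts, shares and medians, which have no sign to turn. The number of members (512) was 882 with lists of equal length, 1182 with replicates 1_2 and 1_3 counted as 1 sample (at least 2 of 3 KO samples) and 183 with a peak in all 4 KO lists, and 240 to 1011 with 1 library left out. It was 515 with a −log10 q of at least 5 and 513 with summits required within 250 bases. The mirror set (1610) was 1025 at equal length and 659 to 2380 with 1 library left out. The share in clusters (20.3%) was 11.3% with gaps of at most 25 kb, 25.2% with 100 kb and 15% to 20.1% with 1 library left out. The AP-1 share (18.2%) was 11.3% within 50 bases, 17.1% at equal length and 15.4% to 19.9% with 1 library left out. The repeat share (11.9%) was 5.08% where at least 50% of the window had to be repeat, and 8.04% to 13.4%. The median TSS distance (33.3 kb) was 21.6 kb with noncoding genes, 27.8 kb at equal length and 26.9 to 37.7 kb with 1 library left out. The median percentile (15.3) was 21.8 ranked by fold and 14.7 to 18.1 with 1 library left out. Higher calls near members (254) numbered 95 under depth scaling, 130 within 20 kb and 383 within 100 kb, which change the number of regions counted, and 186 to 292 with 1 library left out. Over all shared regions 2812 were higher and 3160 lower, against 541 and 1959 under depth scaling. They numbered 4371 and 3044 with the block below and 3689 and 2993 without WT 4, so the balance turned under these 2. The block contrast rests only on numbers found in both genotypes, so KO 2 and WT 4 add nothing to it. Both settings thus leave WT 4 out of the contrast and are not separate alternatives. For the other values that moved, the cause was not tested. With the replicate number as a block the higher calls near members numbered 320. The deviations of same-numbered libraries correlated at 0.0553, 0.117 and 0.037, so the numbers were not taken to pair the libraries. Still, KO 1_2, 1_3 and 3 each correlated best with the WT library of the same number. KO 2 has no such WT library, and whether the shared numbers mark a batch was not tested. The comparisons of the mixed arrangements and of the mirror set at equal length, and the left-out libraries for shares and medians, were added after the data had been seen. Listing needs 7 to 9 tags in WT, which limits what absence of a peak can show.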
